A study of Mus musculus with 4 samples.

Results

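Host fibroblasts of a mouse sarcoma grown as an allograft, that is, a tumor placed in another mouse, were examined after treatment of the animals with vehicle or digoxin. The 203 cells that the deposited annotation names Fibroblast were taken out of 31611 single cells, of which 12648 were annotated as non-malignant and 18963 as malignant. Fibroblasts numbered 78 in vehicle 1, 31 in vehicle 2, 45 in digoxin 1 and 49 in digoxin 2, and the malignant cells of the same 4 tumors served as the reference population. All 4 samples are labelled as hind limb sarcoma of the genotype KrasLSL-G12D/+;Trp53flox/flox on the 129/SvJae background. The labels do not say whether this genotype and strain describe the graft, the host or both. Vehicle animals were injected intraperitoneally with PBS. Digoxin animals were given 2 mg/kg digoxin, a cardiac glycoside that blocks the sodium-potassium pump, prepared in DMSO and diluted in PBS. Doses were 24 h apart and tumors were taken after dose 4. Each group held 2 mice, and ages are not labelled. Cells were freed by enzyme digestion at warm temperature and profiled by droplet sequencing of RNA 3′ ends, in which every RNA molecule carries a unique molecular identifier (UMI).

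Fibroblasts build and remodel the collagen-rich matrix of connective tissue. In tumors they also release growth factors, chemokines and complement proteins, and the states described for them include contractile myofibroblasts, cytokine-secreting inflammatory cells and cells with antigen-presentation genes. A sarcoma is itself of mesenchymal origin, so its malignant cells can carry many of the same matrix genes as the fibroblasts around them.

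Depth was lower in fibroblasts than in malignant cells. The median was 36748.5 and 18866 UMIs per fibroblast in vehicle 1 and vehicle 2, and 31632 and 28822 in digoxin 1 and digoxin 2, against 46799 to 57658 per malignant cell. Summed over cells, a mouse contributed 724340 (vehicle 2) to 3001202 (vehicle 1) fibroblast UMIs. All levels below are mean CPM, the UMIs of a gene scaled to a cell total of 1000000 UMIs, averaged over the cells of a mouse. They are not divided by gene length, because 3′ counting reads each RNA once, at its end. The vehicle 2 fibroblasts stood apart in several gene groups, and this is described with each of them. No fibroblast barcode occurred in another library, while 113 barcodes of all cells were shared.

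The annotation was first checked against its markers. The receptor gene Pdgfra stood at 327 and 411 CPM in the vehicle mice and 351 and 349 CPM in the digoxin mice. Dpt, which encodes the matrix protein dermatopontin, was at 389 and 409 CPM in the vehicle mice and 297 and 215 CPM in the digoxin mice. The collagen III gene Col3a1 reached 16969 and 14242 CPM in the vehicle mice and 14763 and 17318 CPM in the digoxin mice. Decorin, a small proteoglycan that binds collagen, is encoded by Dcn, which was at 2776 and 5352 CPM in the vehicle mice and 3188 and 3169 CPM in the digoxin mice. All 4 markers were detected together in 174 of the 203 cells (85.7%), against 17 of 10363 macrophages (0.164%, median depth 16412 UMIs). Macrophages held 4.24 CPM of Pdgfra, 3.38 CPM of Dpt, 61.3 CPM of Col3a1 and 44.5 CPM of Dcn on average over the mice. The markers did not set fibroblasts apart from the tumor cells to the same degree. Malignant cells held 115 to 145 CPM of Pdgfra, 68.0 to 82.9 CPM of Dpt, 1584 to 2156 CPM of Col3a1 and 1301 to 2191 CPM of Dcn.

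Markers of other cell types were low or absent with 4 exceptions. The 7 endothelial markers summed to between 0 and 7.90 CPM per mouse, with 2 of them at 0 in every mouse. The 7 T and NK cell markers summed to between 0 and 3.26 CPM, with 3 at 0 in every mouse. Of the 9 listed pericyte and smooth muscle markers 1 was at 0 in every mouse, and their sum was 37.7 to 52.5 CPM. The 8 skeletal muscle markers in the table, 3 of them at 0 in every mouse, summed to 15.5 to 31.2 CPM, and the 4 Schwann cell and 3 tendon markers in the table to 6.22 to 15.0 and 15.5 to 27.8 CPM. The first exception was macrophage RNA: the 14 macrophage markers summed to 1254 and 1430 CPM in the vehicle mice and to 1882 and 2239 CPM in the digoxin mice, and none was at 0. Apoe, a lipid carrier gene, made up 650.7 and 1249 CPM of the vehicle sums, and what part of its RNA came from macrophages was not tested. The 7 markers named next, which leave Apoe out, summed to 420 and 133 CPM in vehicle 1 and vehicle 2, the opposite order. In digoxin 1 and digoxin 2 these 7 summed to 671 and 605 CPM. At least 3 of the 7 markers Lyz2, C1qa, C1qb, C1qc, Adgre1, Csf1r and Cd68 were found in 24 of 78, 12 of 31, 13 of 45 and 24 of 49 fibroblasts of vehicle 1, vehicle 2, digoxin 1 and digoxin 2. With each cell thinned to 14000 UMIs the shares were 8.11%, 20.8%, 11.9% and 19.6%, leaving out 4, 7, 3 and 3 shallower cells, and vehicle 2 was then the highest. T cells, which should lack these markers, carried 3 or more in 24.5% of 579 cells as deposited, at a median depth of 7765 UMIs. After thinning the share was 58.9% of the 141 T cells deep enough to be kept, which are not typical T cells. The order of fibroblasts and T cells therefore differs between these measures, and none is read from them. The second was the mast cell list, which summed to 288 CPM in digoxin 1, where 1 cell carried 3 or more of its 4 markers, against 0 to 2.46 CPM in the other mice. The third was lipoprotein lipase: the 5 adipocyte markers in the table summed to 286 to 581 CPM, and Lpl was the 1 of them that stood at least 4-fold above malignant cells in each mouse. The 4 neutrophil markers summed to 0 to 21.6 CPM. The 7 epithelial and mesothelial markers in the table summed to 44.8 to 100.7 CPM, and Krt8, Krt18 and Msln were at least 4-fold lower than in malignant cells. The fourth exception was Wt1 of this list, a transcription factor gene of mesothelium and some mesenchyme, which was at least 4-fold higher. It stood at 52.9 and 31.4 CPM in the vehicle mice and 66.2 and 86.5 CPM in the digoxin mice. Scrublet marked 5, 0, 1 and 2 fibroblasts as doublets, and no fibroblast exceeded 20% mitochondrial UMIs.

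Sex-linked transcripts separated fibroblasts from tumor cells in 3 of the 4 mice. Xist (chrX:103460366-103483254, minus strand), the non-coding RNA of the inactive X chromosome, was at 679 and 0 CPM in the vehicle mice and 774 and 658 CPM in the digoxin mice in fibroblasts and at 16.4 and 0.462 CPM in the vehicle mice and 16.9 and 15.3 CPM in the digoxin mice in malignant cells. It was high in the fibroblasts of vehicle 1, digoxin 1 and digoxin 2, and absent from those of vehicle 2. Ddx3y (chrY:1260771-1286629, minus strand), a helicase gene on the Y chromosome, showed the opposite arrangement, at 0.509 and 89.3 CPM in the vehicle mice and 0 and 0.987 CPM in the digoxin mice in fibroblasts. Malignant cells held 48.1 and 49.1 CPM in the vehicle mice and 49.3 and 43.1 CPM in the digoxin mice of Ddx3y, nearly the same level in all 4 tumors. In single cells, 77 of 78, 43 of 45 and 49 of 49 fibroblasts of vehicle 1, digoxin 1 and digoxin 2 carried Xist. In vehicle 2 the number was 0 of 31, while 27 of 31 carried a UMI of at least 1 of 4 Y-linked genes. The other 3 mice had 10 fibroblasts with a Y-linked UMI, each with 1 such UMI beside 3 to 54 Xist UMIs. Coordinates are those of GENCODE M21 on GRCm38, which is the mm10 build named in the submitters' processing notes. In vehicle 2 these transcripts do not distinguish the 2 populations. The wide range over mice was not particular to fibroblasts. Xist ran from 0.161 to 753 CPM in macrophages and from 0 to 1288 CPM in T cells. Ddx3y ran from 1.74 to 87.7 CPM in macrophages and from 1.38 to 100 CPM in T cells. Both digoxin mice had fibroblasts with Xist, while 1 vehicle mouse had them and 1 did not, so the treatment groups were not balanced for it.

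**Figure D1:**
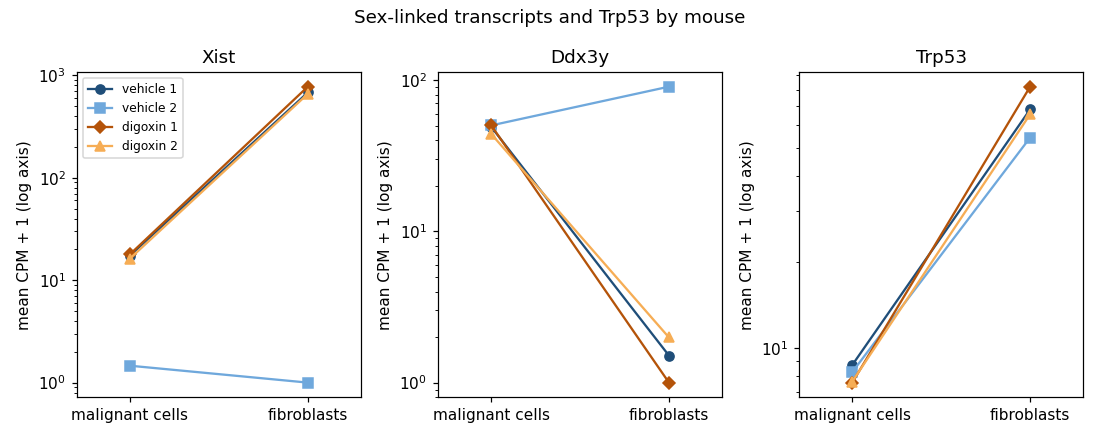
Mean CPM plus 1 (log axis) of Xist, Ddx3y and Trp53 in malignant cells and fibroblasts, with 1 line for each of the 4 mice. Xist is far higher in fibroblasts than in malignant cells in 3 mice and at 0 CPM in the fibroblasts of vehicle 2, while Trp53 is higher in fibroblasts in all 4 mice.

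The conditional tumor suppressor gene Trp53 (chr11:69580359-69591873, plus strand) differed in all 4 mice. Fibroblasts held 67.3 and 53.4 CPM in the vehicle mice and 81.0 and 64.7 CPM in the digoxin mice, and malignant cells 7.71 and 7.23 CPM in the vehicle mice and 6.56 and 6.62 CPM in the digoxin mice. The lowest fibroblast value lay above the highest malignant value by a wide margin, and the ratio of the means was 9.48. Which exons the conditional alleles remove is not given in the sources used here, so it is not known whether the 3′ reads fall inside the deleted stretch. Of the 14 p53 target genes compared, 0 stood at least 4-fold higher and 0 lower in fibroblasts in all mice, beside 2.4% and 0.663% of all genes, a share near that of all genes. Phlda3 was furthest above, at 82.2 to 144 CPM in fibroblasts and 41.8 to 46.9 CPM in malignant cells, followed by the cell cycle inhibitor Cdkn1a, at 77.5 to 137 CPM and 32.0 to 44.4 CPM. Plk2, a stress kinase gene, was furthest below, at 11.0 to 60.1 CPM and 88.9 to 99.2 CPM.

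Fibroblasts made up 2.57% (95% exact Clopper-Pearson interval 2.04 to 3.20) and 1.03% (0.700 to 1.46) of the non-malignant cells with vehicle, and 1.35% (0.983 to 1.80) and 1.504% (1.12 to 1.98) with digoxin. The intervals cover counting error only. The digoxin mice lay between the vehicle mice. Group means were 1.80% ± 1.09 (SD, n = 2) and 1.43% ± 0.112 (SD, n = 2), and a two-sided exact permutation test over the 4 mice gave p = 1.0, where 0.333 is the smallest p the design allows. Of all cells, fibroblasts made up 1.03% and 0.334% with vehicle and 0.596% and 0.677% with digoxin, again with an exact permutation p of 1.0. Without vehicle 1 the difference turned to 0.397 percentage points of the non-malignant cells in favor of digoxin.

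What set the fibroblasts apart from the malignant cells was then described gene by gene. The authors separated the 2 populations on expression, so these differences are a description and carry no test. A gene was counted when fibroblasts stood at least 4-fold above or below malignant cells in each of the 4 mice on the log2(mean CPM + 1) scale, which understates differences of low genes. By that rule 376 of 15681 genes (2.4%) were higher and 104 (0.663%) were lower, and the median difference over all genes was -0.09.

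The 10 genes furthest above malignant cells were close to absent from the tumor cells. Serping1 (chr2:84765387-84775444, minus strand), which encodes the C1 inhibitor of the complement system, was at 1496 and 1908 CPM in the vehicle mice and 1758 and 2181 CPM in the digoxin mice in fibroblasts and at 1.79 and 1.37 CPM in the vehicle mice and 1.76 and 2.14 CPM in the digoxin mice in malignant cells. It was detected in 202 of 203 fibroblasts, against 103 of 10363 macrophages (0.994%) and 1 of 73 neutrophils. The non-malignant cells that the annotation names Epithelial held 57.9 to 82.0 CPM of Serping1, so it was not confined to fibroblasts. The chemokine gene Cxcl14 was at 1435 and 4521 CPM in the vehicle mice and 1629 and 2963 CPM in the digoxin mice in fibroblasts and 2.13 to 3.62 CPM in malignant cells. The imprinted non-coding RNA Meg3 was at 1790.2 to 2175 CPM against 0.773 to 2.41 CPM, and at 171 to 273 CPM in the cells named Epithelial. The lowest fibroblast value of each gene lay far above the highest malignant value. Thbs4, a thrombospondin, stood at 616 to 1794 CPM against 0.484 to 3.16 CPM, and lumican (Lum), a collagen-binding proteoglycan, at 386 to 844 CPM against 0.482 to 3.57 CPM. The extracellular glutathione peroxidase Gpx3 was at 369 to 688 CPM against 0.804 to 1.44 CPM, and the insulin-like growth factor binding protein Igfbp5 at 513 to 867 CPM against 1.53 to 3.89 CPM. Collagen XIV (Col14a1) was at 461 to 631 CPM against 2.66 to 3.41 CPM. Fxyd6, a small regulator of the sodium-potassium pump, was at 118 to 385 CPM against 0.112 to 0.339 CPM, and the secreted Wnt-binding protein Sfrp4 at 397 to 937 CPM, which is 269 times the malignant mean. The log2 differences of these 10 genes ran from 7.04 ± 0.23 for Col14a1 to 9.72 ± 0.54 for Meg3 (SD, n = 4).

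In the other direction the malignant cells carried genes that were low in fibroblasts. Cdkn2a, which encodes the cell cycle inhibitors p16 and p19Arf, was at 24.7 and 27.6 CPM in the vehicle mice and 25.6 and 24.1 CPM in the digoxin mice in fibroblasts and at 1042 and 1178 CPM in the vehicle mice and 1077 and 1015 CPM in the digoxin mice in malignant cells, a log2 difference of -5.35 ± 0.01 (SD, n = 4). The 4 mice differed little for this gene in either population. Macrophages and T cells averaged 45.4 and 51.6 CPM of Cdkn2a, above the fibroblasts. What part of the fibroblast level came from RNA of other cells was not tested. The chromatin protein gene Hmga2 was at 6.26 to 12.8 CPM in fibroblasts and 347 to 435 CPM in malignant cells. Keratin 18 (Krt18) was at 5.02 to 13.3 CPM against 143 to 249 CPM, mesothelin (Msln) at 0 to 3.33 CPM against 41.8 to 64.3 CPM, and the retinoic acid binding protein gene Crabp1 at 12.2 to 16.3 CPM against 280.0 to 413 CPM. Macrophages averaged 17.9 CPM of Hmga2, 10.6 CPM of Krt18, 3.49 CPM of Msln and 26.6 CPM of Crabp1. The fibroblast levels of these genes thus lay near or below those of another host cell type. The remaining 5 of the 10 were Angptl7, Gchfr, Cst6, Klra4 and Gm26870. Gm26870 is a lincRNA in the repeat-rich start of chromosome 9 and Klra4 belongs to a family of close copies, so their UMIs are uncertain.

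**Figure D2:**
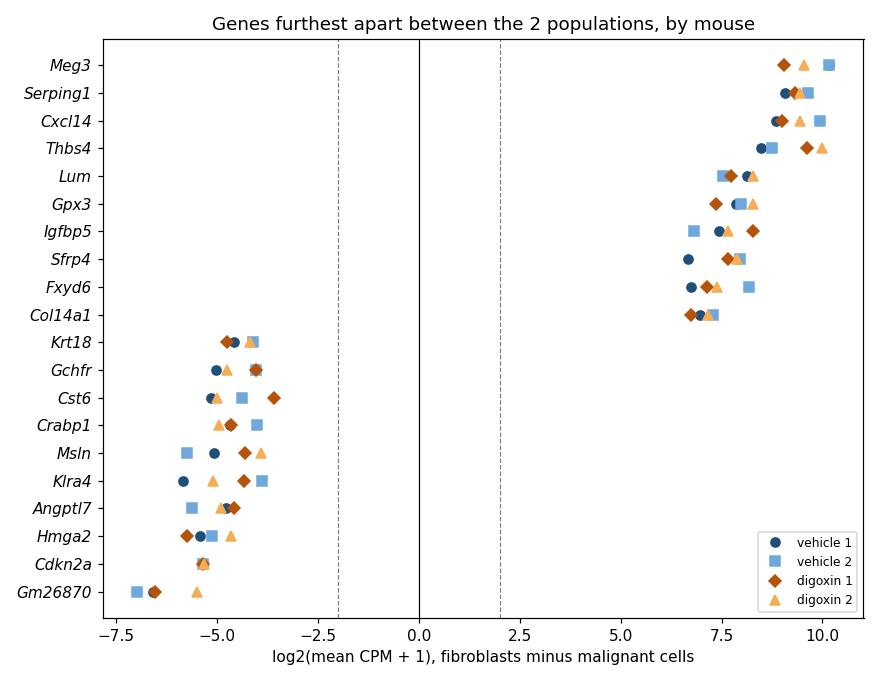
Difference in log2(mean CPM + 1) between fibroblasts and malignant cells for the 10 genes furthest above and the 10 furthest below, with 1 point per mouse and dashed lines at a 4-fold difference. All 4 mice lie on the same side of the dashed lines for each of the 20 genes, with Meg3 furthest to the right and Gm26870 furthest to the left.

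Matrix genes were detected in both populations, and part of each list stood at least 4-fold higher in fibroblasts, beside 2.4% of all genes. Of 10 fibrillar collagen genes 5 were at least 4-fold higher in each mouse, namely Col1a1, Col1a2, Col3a1, Col5a1 and Col5a2, and the median log2 difference of the list was 2.54. Col1a1, a chain of collagen I, was at 13222 and 9855 CPM in the vehicle mice and 11832 and 14429.8 CPM in the digoxin mice in fibroblasts and at 1905 and 1755 CPM in the vehicle mice and 1506 and 1335 CPM in the digoxin mice in malignant cells. Col1a2, its partner chain, was at 12494 and 9532 CPM in the vehicle mice and 10418 and 12459 CPM in the digoxin mice in fibroblasts and at 1765 and 1639 CPM in the vehicle mice and 1433 and 1365 CPM in the digoxin mice in malignant cells. Ratios of the means were 7.59 for Col1a1, 7.24 for Col1a2, 8.34 for Col3a1 and 8.53 for Col5a2. Because these genes stood high together, the promoters of Col1a2 and Col3a1 are shown, from RefSeq on GRCm38.p6, 250 bases before to 50 after the annotated start. Capitals mark the motif CCAAT on either strand, the recognition sequence of the factor NF-Y. It matched 2 times in Col1a2 (at chr6:4505368-4505667, plus strand), had no match in the Col3a1 window (at chr1:45311288-45311587, plus strand), and is present in 37.4% of the 32851 promoters of the table. Both are printed on the strand of the gene, and Col1a1 has no entry there.
Col1a2: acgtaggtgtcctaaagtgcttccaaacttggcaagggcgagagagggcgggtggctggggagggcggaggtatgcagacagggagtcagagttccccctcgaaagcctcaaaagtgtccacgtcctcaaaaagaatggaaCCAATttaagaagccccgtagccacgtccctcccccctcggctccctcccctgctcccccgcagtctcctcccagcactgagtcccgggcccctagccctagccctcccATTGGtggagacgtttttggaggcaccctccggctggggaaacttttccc
Col3a1: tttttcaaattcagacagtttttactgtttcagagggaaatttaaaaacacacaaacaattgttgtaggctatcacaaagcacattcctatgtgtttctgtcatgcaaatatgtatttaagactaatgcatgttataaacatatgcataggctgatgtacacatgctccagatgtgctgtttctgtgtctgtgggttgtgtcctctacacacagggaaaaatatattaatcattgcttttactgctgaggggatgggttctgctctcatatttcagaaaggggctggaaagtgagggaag

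Among the other collagens 6 of 18 passed the 4-fold rule, with Col14a1 and Col6a5 furthest. Collagen VI, a microfibril-forming collagen, differed less: Col6a1 was at 876 to 1146 CPM in fibroblasts and 414 to 538 CPM in malignant cells. Col18a1 and Col7a1 went the other way, at 45.1 to 75.4 CPM and 0.740 to 3.66 CPM in fibroblasts against 82.4 to 127 CPM and 6.75 to 10.9 CPM in malignant cells. Of 10 small leucine-rich proteoglycans 4 were at least 4-fold higher (Lum, Fmod, Prelp and Podn), whereas biglycan (Bgn), another collagen-binding member, was at 3979 to 6234 CPM against 1285 to 1751 CPM. Among 26 matrix and elastic fibre glycoproteins 7 passed, among them Sparc, Fn1 and the microfibril genes Fbn1, Fbn2, Mfap4 and Mfap5. Sparc, a collagen-binding glycoprotein, was at 9329 to 11367 CPM against 1320.2 to 1559 CPM. Of 19 collagen maturation and crosslinking enzymes 4 passed, and lysyl oxidase (Lox), which crosslinks collagen, was at 1227 to 1768 CPM against 138 to 246 CPM. Matrix proteases and inhibitors gave 4 of 20, with the protease inhibitor Serpine2 at 257 to 802 CPM against 12.8 to 27.5 CPM. No gene of these 6 lists was at least 4-fold lower in fibroblasts in each mouse, beside 0.663% of all genes, a share near that of all genes.

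Complement genes were the list with the highest median difference, 3.29 on the log2 scale over 11 genes. Of the 11, 7 were at least 4-fold higher, beside 2.4% of all genes. C3, the central complement component, was at 1363 and 725 CPM in the vehicle mice and 1395 and 1504 CPM in the digoxin mice in fibroblasts and at 22.7 to 70.8 CPM in malignant cells. C4b was at 381 to 509.6 CPM against 4.30 to 9.78 CPM, and Cd55, which protects cells from complement, at 23.2 to 103 CPM against 0.424 to 0.606 CPM. Cfd was at 0 in all fibroblasts, and Masp1 was lower in fibroblasts, at 17.6 to 34.7 CPM against 61.7 to 74.9 CPM.

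Secreted factors and receptors differed member by member. Their counts stand beside 2.4% of all genes at least 4-fold higher and 0.663% lower. Of 30 growth factors and binding proteins 6 were at least 4-fold higher, namely Igf1, Igfbp5, Igfbp7, Sfrp1, Sfrp4 and Wisp2. Igf1, insulin-like growth factor 1, was at 572 and 1067 CPM in the vehicle mice and 783 and 757 CPM in the digoxin mice in fibroblasts and at 4.33 to 5.86 CPM in malignant cells. The bone morphogenetic protein antagonist Grem1 and the lymphatic growth factor Vegfc were lower, at 0 to 5.14 CPM and 7.65 to 17.3 CPM in fibroblasts against 12.5 to 19.6 CPM and 39.2 to 43.4 CPM. Among 22 receptors 5 were at least 4-fold higher (Egfr, Il1r1, Il6st, Lifr and Il4ra) and 1 was lower. The lower receptor was Met, the receptor of hepatocyte growth factor, at 2.28 and 1.71 CPM in the vehicle mice and 0.655 and 0.477 CPM in the digoxin mice in fibroblasts and 17.8 to 21.9 CPM in malignant cells. Il1r1, the interleukin 1 receptor, was at 94.6 to 139 CPM against 6.94 to 8.50 CPM. Of 9 sodium pump beta and regulatory subunits, Fxyd1 and Fxyd6 were at least 4-fold higher, while the pump subunit Atp1b3 was at 58.1 to 68.2 CPM against 70.6 to 76.6 CPM.

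Genes of the described fibroblast states were detected together in the means per mouse, which do not show whether they occur in the same cells. By cell, the universal gene Pi16 and the myofibroblast gene Cthrc1 were both detected in 139 of 203 fibroblasts (68.5%). At 14000 UMIs per cell the share was 58.1% of 186. Macrophages and neutrophils carried Pi16 in 12.4% and 42.5% of cells and Cthrc1 in 1.32% and 2.74%. What part of the fibroblast counts came from other cells was not tested. Of 8 antigen-presenting fibroblast genes 0 were at least 4-fold above malignant cells in each mouse, beside 2.4% of all genes. Of 14 universal fibroblast genes 7 were at least 4-fold above malignant cells, with Entpd2 at 54.4 to 124 CPM against 0.514 to 1.34 CPM and Dpp4 at 26.8 to 47.9 CPM against 0.105 to 0.219 CPM. Among 16 myofibroblast genes 3 were (Cthrc1, Lrrc15 and Col12a1), and Cthrc1, a secreted collagen-associated protein, was at 1298 and 632 CPM in the vehicle mice and 901 and 843 CPM in the digoxin mice in fibroblasts and 10.6 to 19.7 CPM in malignant cells. Fap, a surface protease of activated fibroblasts, was at 82.1 to 124 CPM against 14.3 to 21.6 CPM. The contractile gene Acta2 was at 128 and 14.7 CPM in the vehicle mice and 40.4 and 58.6 CPM in the digoxin mice in fibroblasts and 56.4 and 16.2 CPM in the vehicle mice and 25.1 and 42.3 CPM in the digoxin mice in malignant cells, and vehicle 2 was lowest in both populations. Inflammatory fibroblast genes gave 6 of 18, among them Cxcl14, Il33 and the hyaluronan synthase Has1. The cytokine gene Il6 was at 201 and 75.3 CPM in the vehicle mice and 178 and 416 CPM in the digoxin mice in fibroblasts and 14.3 to 23.0 CPM in malignant cells. Immediate early and dissociation genes, which respond to tissue digestion, had a median difference of 0.02 over 21 genes, with Fos at 1811 to 3258 CPM against 1969 to 2694 CPM. Hypoxia and glycolysis genes had a median of 0.34 over 18 genes.

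**Figure D3:**
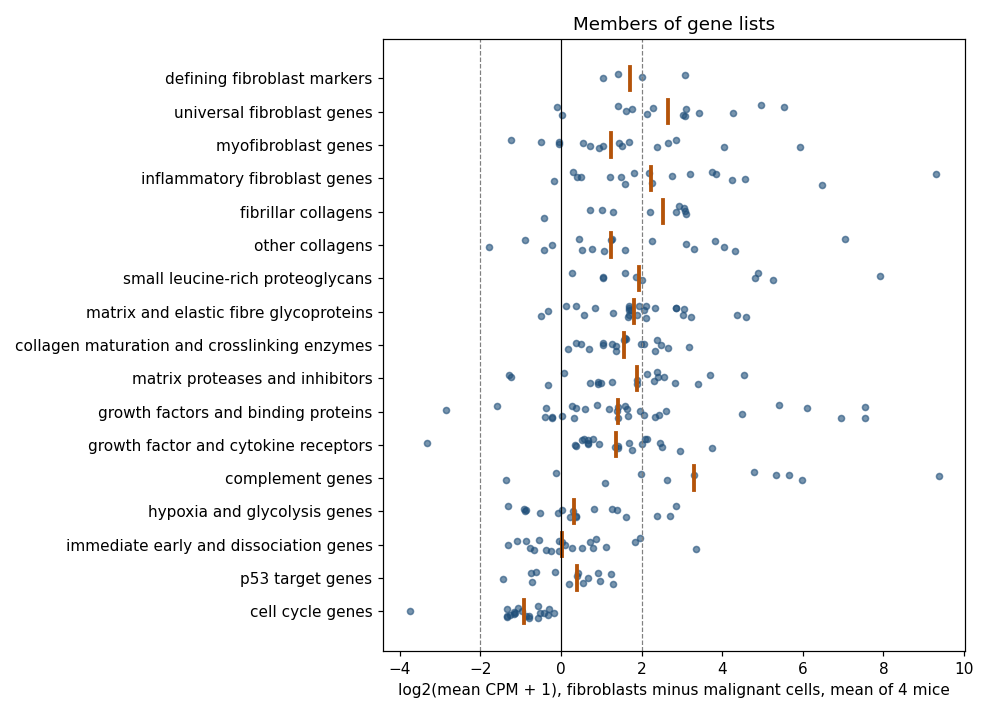
Difference in log2(mean CPM + 1) between fibroblasts and malignant cells, averaged over the 4 mice, for each member of 17 gene lists. Bars mark list medians, from 3.29 for complement genes to -0.92 for cell cycle genes, and dashed lines a 4-fold difference.

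The effect of digoxin within fibroblasts was tested with limma over all 9292 genes that passed the filter on low counts. Not a single gene passed: 0 of 9292 (0.0%) had an adjusted p under 0.05, the smallest adjusted p was 0.999, and 276 had an unadjusted p under 0.05. On recovered UMIs edgeR called 0 genes and DESeq2 called 1, Il1b, at an adjusted p of 0.000795 (limma adjusted p 0.999). With 2 mice a group the result depended on the vehicle mice: limma called 414 genes without vehicle 1 and 30 without vehicle 2, where the lone vehicle sample is assumed to vary like the digoxin pair. Of the 13 genes named below, 12 passed without vehicle 1 and 6 without vehicle 2. Both digoxin mice lay above both vehicle mice for 936 genes (10.1%) and below both for 1804 genes (19.4%). Nothing in the labels says whether the mice of a group were handled on separate days, so p-values measure only the spread between these samples.

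Genes were named here from those with a mean of at least 20 CPM and groups that did not overlap, by their unadjusted p. On the higher side these included 3 transcripts of myeloid cells. Cd14, a co-receptor for bacterial lipopolysaccharide, was at 33.1 and 17.0 CPM in the vehicle mice and 95.0 and 102 CPM in the digoxin mice, and the groups did not overlap. Its log2 difference was 2.01 (SE 0.34), with an unadjusted limma p of 0.000313 and an adjusted p of 0.999. Il1b, the interleukin 1 beta gene, was at 13.4 and 6.95 CPM in the vehicle mice and 48.9 and 170.4 CPM in the digoxin mice, which is 3.11 (SE 0.56) on the log2 scale, also at a limma adjusted p of 0.999. Lyz2, the lysozyme gene of macrophages, was at 163 and 71.0 CPM in the vehicle mice and 415 and 349 CPM in the digoxin mice. Macrophages themselves held 2012 and 2147 CPM of Cd14 in the vehicle mice and 2422 and 3021 CPM in the digoxin mice. Their Il1b was at 1588 and 1280 CPM in the vehicle mice and 1747 and 1715 CPM in the digoxin mice. Malignant cells held 60.7 and 55.6 CPM in the vehicle mice and 64.9 and 69.0 CPM in the digoxin mice of Cd14 and 23.0 and 17.0 CPM in the vehicle mice and 32.8 and 28.5 CPM in the digoxin mice of Il1b. In both cell types the digoxin mice thus lay above the vehicle mice for both genes. The share of all genes separated in this way was not counted in these 2 cell types, so no agreement with fibroblasts is read from it. Malignant cells also carried 429 to 591 CPM of the 7 macrophage markers. What part of their Cd14 and Il1b RNA came from macrophages was not tested. Lyz2 in malignant cells went the other way, at 255 and 296 CPM in the vehicle mice and 206 and 219 CPM in the digoxin mice. After leaving out the 73 fibroblasts with 3 or more of the 7 macrophage markers, Cd14 was at 25.3 and 24.8 CPM in the vehicle mice and 29.8 and 27.3 CPM in the digoxin mice, Il1b at 7.06 and 10.1 CPM in the vehicle mice and 17.4 and 8.51 CPM in the digoxin mice, and Lyz2 at 37.8 and 57.2 CPM in the vehicle mice and 45.8 and 71.8 CPM in the digoxin mice. The groups then lay close together for Cd14 and overlapped for Il1b. Lyz2 is itself one of the 7 markers used to leave cells out, so its lower level in the reduced set follows from that choice. Among the 14 macrophage markers, 7 lay above both vehicle mice in both digoxin mice and 0 below with all cells, against 10.1% and 19.4% of all genes. These 7 include Cd14, Il1b and Lyz2, which were named because their groups did not overlap, so the count is not independent of that choice. Without those 73 cells 4 lay above and 2 below, against 12.8% and 16.7%, and 7 of the 14 markers had served to leave cells out.

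The other genes on the higher side were likewise chosen for groups that did not overlap with all cells. Their groups did not overlap in the reduced set, a part of the same cells, where 12.8% of all genes lay above. Nfkb1, an NF-kB subunit gene, was at 161 and 112 CPM in the vehicle mice and 243 and 442 CPM in the digoxin mice, and at 147 and 67.2 CPM in the vehicle mice and 276 and 481 CPM in the digoxin mice without the cells with macrophage markers. In malignant cells Nfkb1 was at 199 and 157 CPM in the vehicle mice and 209 and 289.7 CPM in the digoxin mice, also without overlap. The share of all genes without overlap was not counted there. Fibromodulin (Fmod), a collagen-binding proteoglycan, was at 22.3 and 51.3 CPM in the vehicle mice and 93.8 and 111 CPM in the digoxin mice, and at 29.4 and 7.27 CPM in the vehicle mice and 129 and 141 CPM in the digoxin mice in the reduced set. Pappa, a protease that cleaves insulin-like growth factor binding proteins, was at 29.1 and 18.9 CPM in the vehicle mice and 69.3 and 49.8 CPM in the digoxin mice, and at 23.7 and 22.5 CPM in the vehicle mice and 48.8 and 55.2 CPM in the digoxin mice in the reduced set, with a log2 difference over all cells of 1.29 (SE 0.32). Ndnf, a secreted neuron-derived factor below the limit of 20 CPM and named by a fixed list, was at 7.47 and 4.39 CPM in the vehicle mice and 28.4 and 32.7 CPM in the digoxin mice, and at 5.93 and 7.17 CPM in the vehicle mice and 30.9 and 47.7 CPM in the digoxin mice in the reduced set, with a log2 difference over all cells of 2.22 (SE 0.40). In malignant cells Ndnf was at 0.827 to 1.03 CPM. None of these 4 passed the adjusted threshold (limma adjusted p 0.999).

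On the lower side, periostin (Postn), a matrix protein of activated fibroblasts, was at 3968 and 3967 CPM in the vehicle mice and 2402 and 2263 CPM in the digoxin mice. With all cells the vehicle values were nearly equal and both digoxin values lay below them, at a log2 difference of -0.77 (SE 0.18). Group means of Postn were then 3967 ± 1.28 CPM (SD, n = 2) with vehicle and 2332 ± 98.1 CPM (SD, n = 2) with digoxin. In the reduced set Postn was at 4021 and 3657 CPM in the vehicle mice and 2934.5 and 2348 CPM in the digoxin mice. The log2 difference shrank to -0.55 there, and to -0.63 with CPM of summed UMIs over all cells. Dnm3os, a non-coding RNA, was at 154 and 173 CPM in the vehicle mice and 80.2 and 85.0 CPM in the digoxin mice. The secreted C1q-related protein gene C1qtnf3 was at 194 and 183 CPM in the vehicle mice and 104 and 94.8 CPM in the digoxin mice. In malignant cells the digoxin mice were also below the vehicle mice for Postn, at 1309.9 and 1008 CPM in the vehicle mice and 867 and 677 CPM in the digoxin mice, and for Dnm3os, at 50.9 and 53.3 CPM in the vehicle mice and 38.0 and 25.7 CPM in the digoxin mice, whereas C1qtnf3 overlapped, at 12.2 and 3.43 CPM in the vehicle mice and 4.08 and 3.62 CPM in the digoxin mice. The malignant cells of the digoxin mice were also below for Enpp1, at 105 and 104 CPM in the vehicle mice and 95.5 and 73.5 CPM in the digoxin mice, and for Bhlhe41, at 2.91 and 3.39 CPM in the vehicle mice and 2.76 and 2.50 CPM in the digoxin mice, and overlapped for Ass1, at 44.3 and 28.5 CPM in the vehicle mice and 30.6 and 25.5 CPM in the digoxin mice. How large a share of all genes lay below in malignant cells was not counted, so no agreement between the populations is read from these genes. In fibroblasts Enpp1, an enzyme of pyrophosphate metabolism, was at 69.7 and 65.6 CPM in the vehicle mice and 26.3 and 34.5 CPM in the digoxin mice. The circadian repressor Bhlhe41 was at 24.1 and 48.1 CPM in the vehicle mice and 10.4 and 5.12 CPM in the digoxin mice, and the arginine synthesis enzyme Ass1 at 46.0 and 52.9 CPM in the vehicle mice and 16.5 and 21.4 CPM in the digoxin mice. The 6 genes were chosen for groups that did not overlap with all cells, as 19.4% of all genes did in this direction. The groups did not overlap in the reduced set of cells either, where 16.7% of all genes lay below, and limma gave an adjusted p of 0.999 for each.

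**Figure D4:**
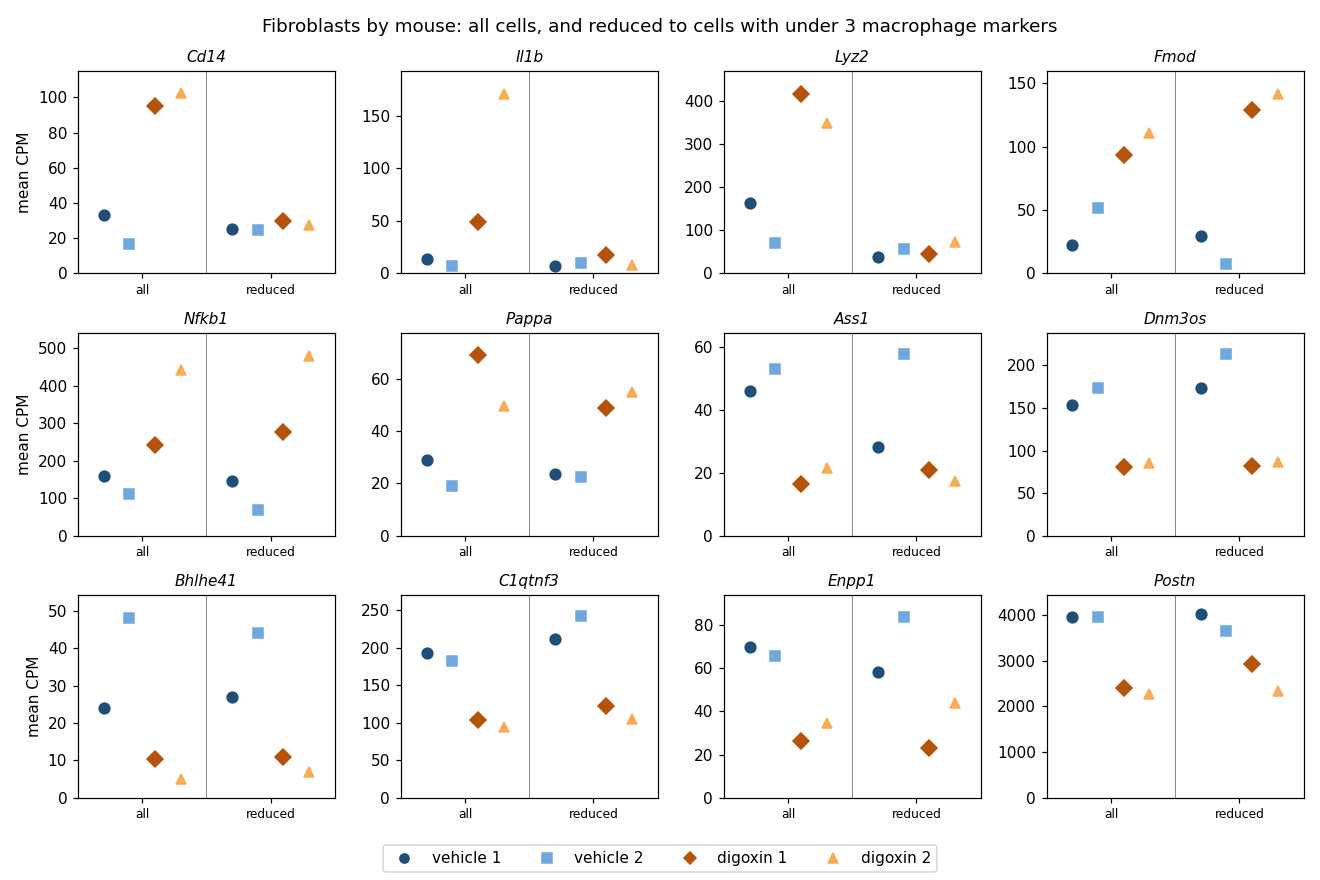
Mean CPM in fibroblasts of each mouse for the 6 genes higher and 6 lower with digoxin that had the smallest unadjusted p among genes with a mean of at least 20 CPM and groups that did not overlap, with all cells at the left of each panel and without cells carrying 3 or more macrophage markers at the right. Cd14, Il1b and Lyz2 come together in the reduced set, while Postn and Dnm3os stay lower in both digoxin mice.

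By list, 8 of 22 NF-kB and cytokine response genes lay above both vehicle mice in both digoxin mice and 1 below, against 10.1% and 19.4% of all genes. The median log2 difference was 0.74 beside -0.04 over all genes. The 8 include Cd14, Il1b and Nfkb1, which were named above for groups that did not overlap. Without the cells with macrophage markers the counts were 5 and 3 and the median 0.51, against 12.8% above and 16.7% below. The median of this list was 1.44 without vehicle 1 and 0.29 without vehicle 2. The chemokine gene Cxcl1 was at 1046 and 625 CPM in the vehicle mice and 1253 and 2049.8 CPM in the digoxin mice. Of 26 matrix and elastic fibre glycoproteins 2 lay above and 8 below, against 10.1% and 19.4% of all genes. Postn, named above for groups that did not overlap, was among the 8, as were Mfap5, Eln and Fn1. The list median was -0.14 beside -0.04 over all genes. Without the cells with macrophage markers 1 lay above and 7 below, against 12.8% and 16.7% of all genes, with a list median of -0.11. Mfap5, a microfibril protein, was at 2271 and 2306 CPM in the vehicle mice and 1643 and 1441 CPM in the digoxin mice. Of 14 universal fibroblast genes 0 lay above and 5 below with a median of -0.43, against 10.1% and 19.4% of all genes. Without the cells with macrophage markers 0 lay above and 2 below with a median of -0.23, against 12.8% and 16.7% of all genes. Dpt, one of the defining markers, was at 389 and 409 CPM in the vehicle mice and 297 and 215 CPM in the digoxin mice, and at 459.8 and 263 CPM in the vehicle mice and 299 and 195 CPM in the digoxin mice in the reduced set, where the groups overlapped. Fibrillar collagens had 0 of 9 above and 0 below, against 10.1% and 19.4% of all genes. Col1a1 differed by 0.19 (SE 0.22) and Col3a1 by 0.04 (SE 0.20) on the log2 scale. In the hypoxia and glycolysis list 5 of 18 lay above and 1 below, against 10.1% and 19.4% of all genes. Its median of 0.28 was 0.56 without vehicle 1 and 0.00 without vehicle 2. Without the cells with macrophage markers 2 of the 18 lay above and 2 below, against 12.8% and 16.7% of all genes. None of these list members passed the limma test.

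Whether digoxin moved fibroblasts and malignant cells of the same tumors differently was tested on the difference within each mouse. By limma 0 of 15681 genes (0.0%) passed, with 772 at an unadjusted p under 0.05 and a smallest adjusted p of 0.985. Among genes with a mean of at least 20 CPM and groups that did not overlap, those with the smallest p on the higher side were Cd14, Procr, an endothelial protein C receptor, and Crem, a regulator of cyclic AMP signalling. The log2 effect on Cd14 in fibroblasts was 2.01 with all cells and 0.18 without the cells with macrophage markers. In malignant cells it was 0.20. Procr was at 23.0 and 17.1 CPM in the vehicle mice and 43.9 and 44.4 CPM in the digoxin mice in fibroblasts and 37.6 to 41.9 CPM in malignant cells, and the effects differed by 1.15 (SE 0.23) at a limma adjusted p of 0.985. Crem was at 16.7 and 12.8 CPM in the vehicle mice and 33.2 and 31.2 CPM in the digoxin mice in fibroblasts and 23.7 to 25.7 CPM in malignant cells. On the lower side, Hmgn3, a nucleosome-binding protein gene, was at 55.8 and 59.7 CPM in the vehicle mice and 31.5 and 28.6 CPM in the digoxin mice in fibroblasts and 80.9 to 87.9 CPM in malignant cells. Dcaf5 and Farp1 were the other two, with differences in effect of -1.10 (SE 0.20) and -1.05 (SE 0.20) at limma adjusted p of 0.985.

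The fibroblasts of vehicle 2 differed from those of the other 3 mice in gene groups that run across the treatment. Cd74, the chaperone of class II antigen presentation, was at 523 and 28.7 CPM in the vehicle mice and 428 and 487 CPM in the digoxin mice, and H2-Ab1, a class II chain, at 219 and 24.4 CPM in the vehicle mice and 219 and 299 CPM in the digoxin mice. Both were lowest in vehicle 2. Beside the macrophage RNA described above, the sum of Cd74, H2-Aa, H2-Ab1 and H2-Eb1 divided by the sum of the 7 macrophage markers was 2.71 in vehicle 1, 0.608 in vehicle 2, 1.41 in digoxin 1 and 1.88 in digoxin 2. Macrophages of the same mice gave 0.893, 0.584, 0.857 and 0.538, malignant cells 0.385 to 0.723, and T cells 3.10 to 5.90. Without the cells carrying 3 or more macrophage markers, the class II sum was 429 and 81.3 CPM with vehicle and 377 and 410 CPM with digoxin. What part of this RNA came from other cells was not tested.

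Cell cycle genes followed the same division. Mki67, a marker of cycling cells, was at 118 and 3.92 CPM in the vehicle mice and 86.8 and 65.4 CPM in the digoxin mice, and Top2a, a topoisomerase of dividing cells, at 163 and 19.8 CPM in the vehicle mice and 138 and 98.6 CPM in the digoxin mice. At least 3 of 9 cell cycle genes were found in 34 of 78, 1 of 31, 14 of 45 and 15 of 49 fibroblasts. After each cell was thinned to 14000 UMIs, leaving out 4, 7, 3 and 3 shallower cells, the shares were 29.7%, 4.17%, 26.2% and 13.0%. Neutrophils, which do not divide, gave 14 of 73 cells (19.2%, median depth 11969 UMIs) as deposited and 8 of the 27 cells deep enough to be thinned (29.6%). Of these 73 cells 62 (84.9%) also carried 3 or more of the 7 macrophage markers, which limits their use as a background. Of the fibroblasts with at least 3 cell cycle genes, 33 of 34, 0 of 1, 12 of 14 and 15 of 15 carried Xist, mice in the same order. In vehicle 1, digoxin 1 and digoxin 2 these cells held 0.323, 0 and 0 CPM of Ddx3y, against 43.1 to 49.3 CPM in malignant cells. Macrophages carried Xist in 74.6% of cells and at least 3 of the 9 genes in 34.7%. Cycling was not read from these shares alone, and what part of them came from other cells was not tested. Malignant cells held 194 and 129 CPM in the vehicle mice and 168 and 208 CPM in the digoxin mice of Top2a. The actin-binding gene Tagln was at 93.5 and 3.61 CPM in the vehicle mice and 12.1 and 25.9 CPM in the digoxin mice, the acute phase gene Saa3 at 583 and 27.1 CPM in the vehicle mice and 225 and 978 CPM in the digoxin mice, and the chemokine gene Cxcl5 at 452 and 19.0 CPM in the vehicle mice and 292 and 450.1 CPM in the digoxin mice, each lowest in vehicle 2. Vehicle 2 was highest for Dcn and Cxcl14, given above, and for the collagenase gene Mmp13 at 18.9 and 148 CPM in the vehicle mice and 14.6 and 0 CPM in the digoxin mice. The same mouse had the fewest fibroblasts, the lowest median depth and 0 of 31 fibroblasts with Xist, and these differences cannot be told apart.

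**Figure D5:**
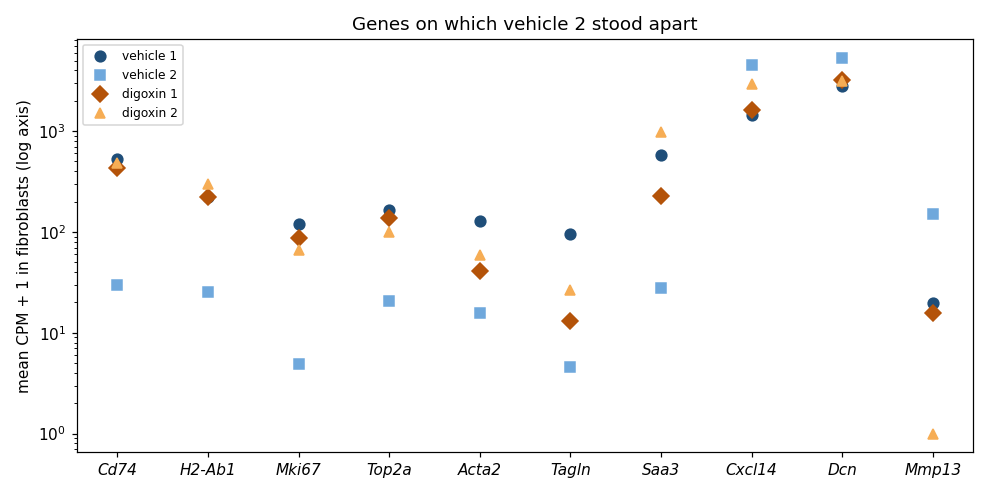
Mean CPM plus 1 (log axis) in fibroblasts of each mouse for 10 genes chosen after their values were seen. Vehicle 2 is the lowest point for Cd74 (28.7 CPM), H2-Ab1, Mki67, Top2a, Acta2, Tagln and Saa3, and the highest for Cxcl14, Dcn and Mmp13 (148 CPM).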

How the data were processed

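The authors deposited, per the file headers and values, the natural log of 1 plus UMIs per 10000 UMIs of each cell, with the UMI count of the cell and its annotation. Cell Ranger 3.0.2, Seurat 3.0.2 and mm10 are named in the submitters' processing notes. Cells of vehicle 2 are named with a 3, and were matched to that mouse through the deposited metadata. Whole UMIs were recovered for 100% of values above 0 (tolerance 0.01). CPM per cell were averaged per mouse, log2(mean CPM + 1) was tested with limma 3.58.1 (empirical Bayes with trend, Benjamini-Hochberg at 0.05) after edgeR's filterByExpr on summed UMIs, and edgeR 4.0.16 and DESeq2 1.42.0 on recovered UMIs were alternatives. Doublets were marked with Scrublet (scanpy 1.11.5, expected rate 0.06) per mouse and kept in the main results, as were all annotated fibroblasts. The scripts were tested on simulated data.

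Genes, lists and tests were chosen with earlier results of these data known. Named were 15 fixed genes. For digoxin the 6 higher and 6 lower genes with the smallest unadjusted p, a mean of at least 20 CPM and separated groups were named, and 3 and 3 for the difference in effect. Against malignant cells the 10 genes in each direction with the largest smallest difference over mice and a mean of at least 50 CPM were named. In each list the rule took the 3 most abundant members, the 2 highest and 2 lowest differences from malignant cells and the 2 smallest p. Other list members named were chosen after their values were seen, as were 3 alternatives on cell sets. Every value column was matched to a sample, leaving 0 unmatched.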

Additional observations from a re-analysis of the deposited data

Results flagged for a closer look

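In 3 of 50 named genes 1 mouse lay far from the other 3 in the difference between fibroblasts and malignant cells, and chance alone gives about 1 in 20 such groups. Xist had a log2 difference of -0.55 in vehicle 2 against 5.29 to 5.44 in the other mice, where the vehicle 2 fibroblasts carried no Xist. Cdkn2a had -5.36 in vehicle 2 against -5.34 in the other mice, a gap that is large only beside the very small spread of that gene. Atp1b3 had -0.39 in digoxin 2 against -0.13 to -0.11 in the other mice.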

How the results depend on the processing

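With 2 mice a group, the count of genes called for digoxin in fibroblasts was 0 under both edgeR normalizations, both other pseudocounts, no filter on low genes, CPM of summed UMIs and each reduced set of cells. DESeq2 called 1, and leaving out 1 mouse gave 0 to 414. The difference in effect between fibroblasts and malignant cells called 0 genes under every alternative run. The median of all genes moved to -0.11 on the log2 scale both without vehicle 2 and without digoxin 1, so changes there are relative to it. The replicate block called 0 genes in both tests. The labels do not say that equal numbers mark a pairing, same-numbered mice had a correlation of deviations of -0.0508 over 9292 genes, and the mice were taken to share only a number. Counts against malignant cells depend on the pseudocount: genes at least 4-fold higher were 376, and 135 with a pseudocount of 10, while genes lower were 104, 375 with a pseudocount of 0.1 and 22 with 10. The count of lower genes was 200 without the cells with 3 or more cell cycle genes, a choice made after seeing the data. Leaving out 1 mouse gave 396 to 435 higher and 126 to 134 lower genes. The share of fibroblasts differed by -0.375 percentage points of non-malignant cells, and by -1.15 to 0.397 with 1 mouse left out. Of all cells it differed by -0.0477, and by -0.398 to 0.303. In both cases the value without vehicle 1 (0.397 and 0.303) is the reversed one. Over 234 runs of an alternative for the 13 named digoxin genes no sign changed, but many of these runs could not change it. Groups were separated for all 13 genes, 12 by choice. The other, Ndnf, came from a fixed list drawn up with earlier results of these data known, so it is not an independent case. That fixes the sign where 1 mouse is left out and under another pseudocount. Runs without the filter or with the replicate block return the main difference. The mitochondrial limit does so too, as it left out 0 fibroblasts. Without the cells with macrophage markers the log2 differences shrank to 0.18 for Cd14, 0.49 for Il1b and 0.30 for Lyz2, from 2.01, 3.11 and 1.81. In 19 runs a gene passed the threshold: 12 without vehicle 1, 6 without vehicle 2 and Il1b by DESeq2. Low UMI totals, 724340 in vehicle 2, limit what can be seen for low genes.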
